A study of Mus musculus with 14 samples.

Results

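The 10 tight junction genes followed here were Cldn1, Cldn2, Cldn3, Cldn4, Cldn7, Cldn8, Cldn15, Cldn23, Ocln and Tjp1, taken as every array probe whose RefSeq accession maps to one of these symbols. This gave 13 probes for 10 of the 19096 named genes on the array. Whole colons came from female C57BL/6 mice, 4-6 months old and on chow diet. Flox mice (n = 4 on regular water, n = 3 on 2.5% DSS for 7 days) carry loxP-flanked alleles of Nr3c1, the gene of the glucocorticoid receptor (GR), and have an intact receptor. GR iKO mice (n = 4 on water, n = 3 on DSS) carry the same floxed alleles together with a Villin-cre transgene, which deletes the receptor in intestinal epithelial cells, so GR remains in the muscle, stromal and immune cells of the same colon. DSS (dextran sulfate sodium) is a detergent-like polysaccharide that injures the colonic epithelium and causes colitis. The comparisons address how the claudins and their partners respond to DSS colitis and whether epithelial GR loss changes their expression on water or on DSS.

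Tight junctions are the apical strands that close the space between neighbouring epithelial cells. Claudins are the membrane proteins that form the strands, and which claudins a cell makes sets how permeable the strands are to ions and water. Cldn2 and Cldn15 form paracellular pores for small cations. Cldn1, Cldn3, Cldn4 and Cldn8 are counted as sealing claudins, which tighten the barrier. Cldn7 and Cldn23 belong to neither class here. Ocln (occludin) is a further membrane protein of the strands, and Tjp1 (ZO-1) is the cytoplasmic scaffold that ties them to actin.

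RefSeq promoter entries on GRCm38.p6 were held for 8 of the 10 members, with none for Cldn8 and Cldn23. The 250 bases before the start are shown for the 2 pore-forming claudins, whose level fell on DSS in both genotypes, and for Cldn3 and Cldn4, the measured sealing claudins with an entry. Capitals mark matches, on either strand, to 4 short motifs: AGAACA, the core bound by a glucocorticoid receptor monomer; TTTATG, a CDX motif; TGANTCA, an AP-1 motif; and CAGGTG, a Snail E-box. The entries lie at chrX:139800558-139800807 (plus strand), chr5:136967619-136967868 (plus strand), chr5:134985964-134986213 (plus strand) and chr5:134946935-134947184 (minus strand), each printed 5′ to 3′ in the direction of transcription.
Cldn2: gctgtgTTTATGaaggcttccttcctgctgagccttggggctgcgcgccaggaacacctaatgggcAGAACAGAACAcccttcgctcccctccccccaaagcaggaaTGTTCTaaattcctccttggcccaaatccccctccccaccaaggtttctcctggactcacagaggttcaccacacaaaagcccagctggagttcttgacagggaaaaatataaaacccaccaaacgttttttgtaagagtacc
Cldn15: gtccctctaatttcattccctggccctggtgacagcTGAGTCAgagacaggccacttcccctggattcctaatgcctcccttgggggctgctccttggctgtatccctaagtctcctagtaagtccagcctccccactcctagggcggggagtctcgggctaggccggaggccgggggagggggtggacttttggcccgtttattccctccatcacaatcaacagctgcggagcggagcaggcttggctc
Cldn3: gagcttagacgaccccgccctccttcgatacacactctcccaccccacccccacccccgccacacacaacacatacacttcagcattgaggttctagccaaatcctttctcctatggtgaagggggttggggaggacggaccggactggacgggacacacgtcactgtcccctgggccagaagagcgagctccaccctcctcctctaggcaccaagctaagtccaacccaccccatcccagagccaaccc
Cldn4: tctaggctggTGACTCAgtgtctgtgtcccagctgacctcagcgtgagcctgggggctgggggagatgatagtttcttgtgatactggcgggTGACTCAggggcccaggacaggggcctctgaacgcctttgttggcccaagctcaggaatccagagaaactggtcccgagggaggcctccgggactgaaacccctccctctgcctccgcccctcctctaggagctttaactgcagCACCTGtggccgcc
In the Cldn2 entry, AGAACA or its complement began 184, 179 and 143 bases before the start, the first pair overlapping by 1 base, and TTTATG began 244 bases before it. AGAACA was in no other member's entry, and 16.1% of the 32851 mouse entries held it in the same window. For TTTATG the share was 10.8%. The AP-1 letters stood 240 and 158 bases before the Cldn4 start and 214 bases before the Cldn15 start, against 6.75% of all entries. CAGGTG stood 14 bases before the Cldn4 start, and it was also in 1 of the 2 entries each of Cldn7 and Ocln, against 17.2% of all entries. The Cldn3 entry held none of the 4. These are letter matches only and no binding was measured here.

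Levels are log2 intensities relative to the array's 75th percentile, and changes are differences of group means in log2 units with the SE and the adjusted p of limma (Benjamini-Hochberg over 29523 probes, called below 0.05). The 75th percentile of the 14 arrays lay between 262 and 1003 in units of intensity, and 62.6% to 71.3% of probes were well above background. The variance between DSS arrays was 3.43 times that between water arrays, which the fit allowed for. DSS changed 13929 of 29523 probes in Flox, 7497 of them lower and 6432 higher, and 11442 in GR iKO, with 5822 lower and 5620 higher. That split depended on the scaling. With spike-in scaling it was 24085 lower and 246 higher in Flox and 10631 lower and 732 higher in GR iKO, since the median probe then shifted by -2.22 and -0.90, and with normexp background correction it was 4831 lower and 9175 higher in Flox and 3877 lower and 5441 higher in GR iKO. The targeted gene, Nr3c1, was lower in GR iKO on water by its probe of highest signal (log2 change -0.80, SE 0.10, adjusted p = 0.0091), with levels of 1.05 to 1.38 in Flox and 0.19 to 0.57 in GR iKO. On DSS it was 1.07 to 1.46 in Flox and 0.37 to 0.48 in GR iKO, where the change of -0.83 did not pass (adjusted p = 0.092). All 4 Nr3c1 probes were lower in GR iKO on both treatments. Of the markers listed for colonic epithelium, 11 of 11 were measured.

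On DSS, 7 of the 9 measured members fell in Flox colons and none rose. These were Cldn2, Cldn15, Cldn3, Cldn8, Cldn7, Cldn23 and Ocln. Of all probes tested, 47.2% were called in this comparison, 25.4% lower and 21.8% higher. In GR iKO colons, Cldn2, Cldn15 and Ocln fell on DSS and Cldn4 rose. Thus 4 of 9 members were called against 38.8% of all probes (19.7% lower and 19.0% higher), a share close to that background. Counted by gene, as the members are, 7666 of the 15540 genes tested were called in Flox and 6482 in GR iKO. Cldn2, Cldn15 and Ocln were called in both genotypes, and the share of all probes called in both was not counted. Cldn1 was not well above background on any of the 14 arrays with either of its 2 probes and was not tested. The median change over the 9 members was -0.95 in Flox and -0.20 in GR iKO, beside -0.03 and 0.00 over the 15540 genes tested. Without Flox DSS replicate 1, or without replicate 2, the number of members called in Flox was 3, in place of 7, and the share of all probes called was then 31% and 32.9%. With spike-in scaling all 9 fell in Flox and 4 fell and none rose in GR iKO, so each direction here is relative to the 75th percentile of the same array.

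**Figure D1:**
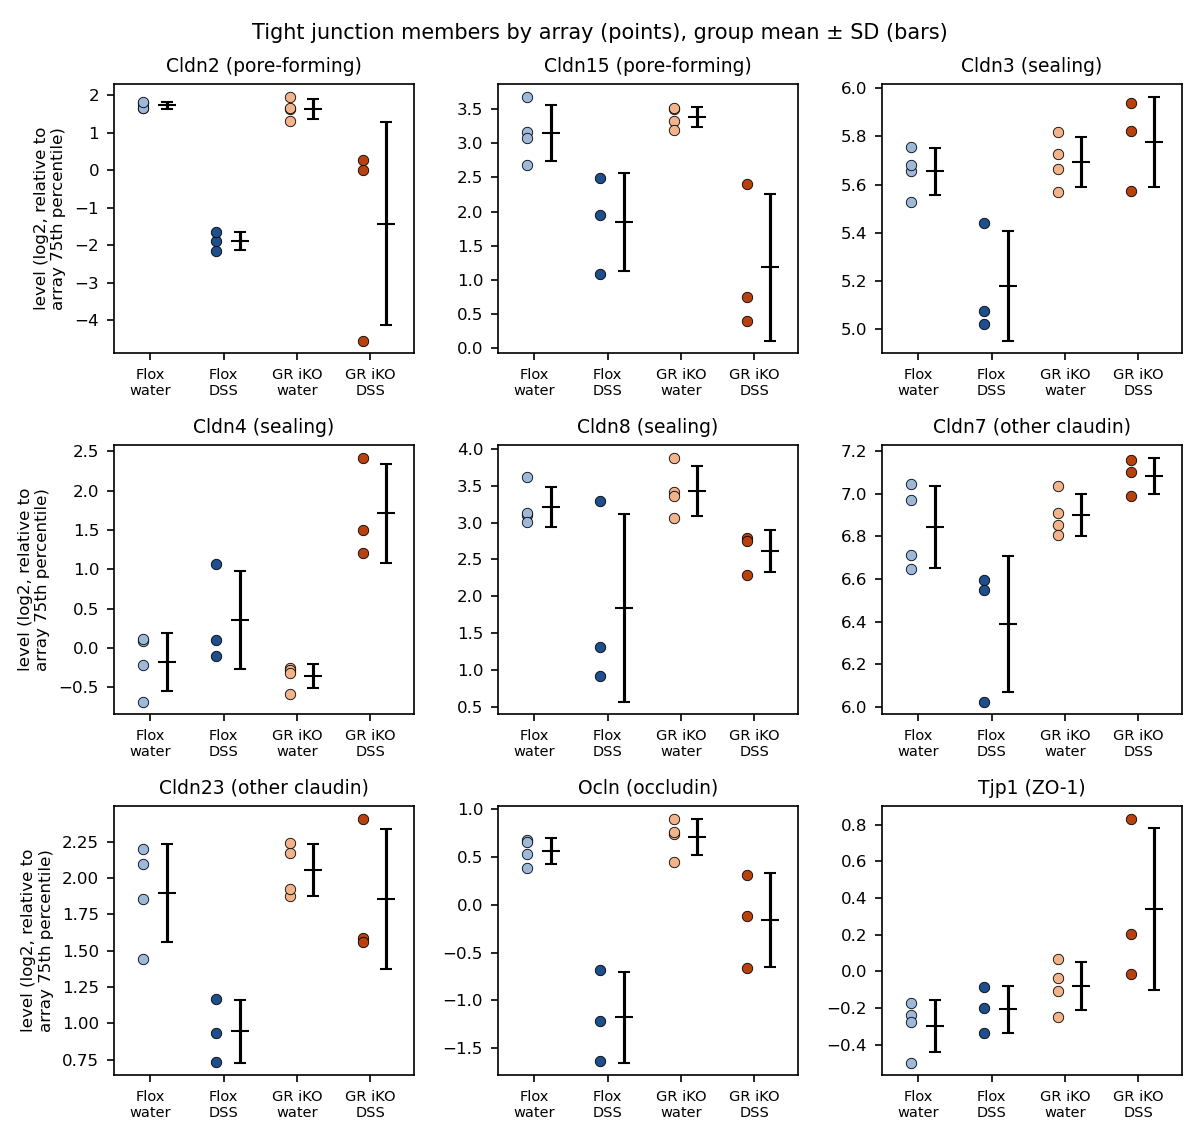
Level of each of the 9 measured members on every array (points, log2 intensity relative to the array's 75th percentile) with the group mean ± SD beside them, for Flox and GR iKO on water (n = 4 each) and on DSS (n = 3 each). Cldn2 and Cldn15 lie lower on every DSS array than on every water array of the same genotype, and Cldn4 lies higher on the 3 GR iKO DSS arrays than on any other array.

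Cldn2, the cation- and water-permeable claudin of leaky epithelia, had the largest change of any member. Its level on water was 1.79, 1.65, 1.66 and 1.82 in Flox and 1.31, 1.63, 1.66 and 1.96 in GR iKO. On DSS it was -2.14, -1.88 and -1.66 in Flox. All 3 Flox DSS arrays were far below all water arrays, and the level fell by 3.62 (SE 0.72, adjusted p = 0.0015), which left 8.1% of the water level. In GR iKO on DSS, replicates 1, 3 and 4 gave -0.0018, -4.55 and 0.28. Replicate 3 was 28.4-fold below the highest of that group, whereas the other two lay above all Flox DSS arrays. The fall over the 3 GR iKO arrays was 3.07 (SE 0.72, adjusted p = 0.0056), and without replicate 3 it fell by 1.50 (adjusted p = 0.00089). The fall in GR iKO lost its call only where the fit was restricted to the arrays compared (adjusted p = 0.061).

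The other pore former, Cldn15, which carries the sodium permeability of the small and large intestine, moved the same way. On water its level was 3.17, 3.68, 3.08 and 2.68 in Flox and 3.49, 3.51, 3.33 and 3.19 in GR iKO. DSS lowered it to 1.96, 2.50 and 1.09 in Flox and to 0.75, 0.40 and 2.41 in GR iKO. No DSS array overlapped the water arrays of its genotype. Cldn15 fell by 1.31 in Flox (SE 0.43, adjusted p = 0.025) and by 2.20 in the knockout (SE 0.43, adjusted p = 0.0018), to 40.4% and 21.8% of the water level. In Flox the call was lost without DSS replicate 1 (adjusted p = 0.080) or replicate 4 (adjusted p = 0.14). Over the 14 arrays the levels of Cldn2 and Cldn15 correlated at r = 0.81, a description in which the DSS groups set most of the range.

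Among the sealing claudins no common direction was seen. Cldn4, the claudin of tight epithelia that the Clostridium perfringens enterotoxin binds, was the single member that rose. On water its level was -0.22, 0.09, 0.11 and -0.68 in Flox and -0.58, -0.26, -0.28 and -0.31 in GR iKO. On DSS it was 1.07, 0.10 and -0.10 in Flox and 1.50, 2.42 and 1.21 in GR iKO. Flox water and DSS arrays overlapped, while every GR iKO DSS array was above every other array. The rise in GR iKO was 2.07 (SE 0.34, adjusted p = 0.00061), a 4.20-fold higher level. In Flox the change of 0.53 did not pass (SE 0.34, 95% interval -0.20 to 1.27, adjusted p = 0.22). Spike-in scaling turned the Flox change to -1.60 (adjusted p = 0.017) and left 1.19 in GR iKO (adjusted p = 0.10), beside a median probe at -2.22 and -0.90.

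Cldn3, a broadly made barrier claudin, was 5.66, 5.53, 5.76 and 5.68 on water and 5.02, 5.08 and 5.44 on DSS in Flox. All 3 DSS arrays were below the water arrays, and the level fell by 0.47 (SE 0.14, adjusted p = 0.016). In GR iKO it was 5.57, 5.66, 5.73 and 5.82 on water and 5.57, 5.82 and 5.94 on DSS, with overlapping groups and a change of 0.08 (SE 0.14, 95% interval -0.22 to 0.39, adjusted p = 0.68). The fall in Flox did not pass without DSS replicate 1 (adjusted p = 0.12) or replicate 2 (adjusted p = 0.097).

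Cldn8, which restricts sodium leak in the distal colon and kidney tubule, was 3.62, 3.11, 3.13 and 3.01 on water in Flox and 0.91, 1.32 and 3.29 on DSS. Replicate 4 lay within the water range while the others were far below it. The fall was 1.38 (SE 0.43, adjusted p = 0.020), and it was not called without DSS replicate 1 (adjusted p = 0.18), without replicate 2 (adjusted p = 0.13) or with only the arrays compared (adjusted p = 0.069). In GR iKO the level was 3.42, 3.88, 3.06 and 3.36 on water and 2.80, 2.76 and 2.29 on DSS. These groups did not overlap, yet the change of -0.82 did not pass (SE 0.43, adjusted p = 0.15).

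Pore-forming and sealing claudins were then set against each other on each array, as the mean shift of Cldn2 and Cldn15 minus that of Cldn3, Cldn4 and Cldn8, both from the mean of the 4 Flox water arrays. The pore-forming shift was -2.46 ± 0.30 (SD, n = 3) in Flox DSS and -2.56 ± 1.76 (SD, n = 3) in GR iKO DSS. The sealing shift was -0.44 ± 0.37 in Flox DSS, from -0.73 to -0.02, and 0.47 ± 0.27 in GR iKO DSS, from 0.25 to 0.77. The sealing shift was below 0 on all 3 Flox DSS arrays and above 0 on all 3 GR iKO DSS arrays. Without Cldn4 the sealing shift in GR iKO DSS was below 0, a split made after the values were seen. Cldn3 by itself had a mean level of 5.78 there, beside 5.65 in Flox water. The mean shift of Cldn3 and Cldn8 was -0.25, -0.15 and -0.32 on the 3 GR iKO DSS arrays. On the Flox DSS arrays it was -1.47, -1.24 and -0.07. The sealing values above 0 also depended on the scaling. The mean DSS change of the 3 sealing claudins in GR iKO was 0.44 as reported and -0.44 with spike-in scaling, while that of the 2 pore-forming claudins was -2.63 and -3.51. The difference between the classes was -2.02 ± 0.66 (SD, n = 3) in Flox DSS, from -2.71 to -1.40, and -3.03 ± 2.03 (SD, n = 3) in GR iKO DSS, from -5.28 to -1.35. On water it ranged from -0.17 to 0.21 in Flox and from -0.07 to 0.12 in GR iKO. On each of the 6 DSS arrays the pore-forming shift was thus lower than the sealing shift. The contrast covers only the claudins named above. Cldn10, whose splice forms build cation or anion pores, was in neither class and rose on DSS by 3.37 in Flox and 1.37 in GR iKO. Cldn14, a cation barrier claudin also in neither class, fell by 1.79 and 1.16. By gene the classes were not separate in Flox, where Cldn2 fell by 3.62 but Cldn15 by 1.31, beside 1.38 for the sealing Cldn8. In GR iKO Cldn2 fell by 3.07 and Cldn15 by 2.20, beside 0.82 for Cldn8. The most extreme array, GR iKO DSS replicate 3, combined the lowest pore-forming shift with the highest sealing shift, and without it the GR iKO DSS mean was -1.90. No p value is given, since the classes were set with earlier results of these data known.

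**Figure D2:**
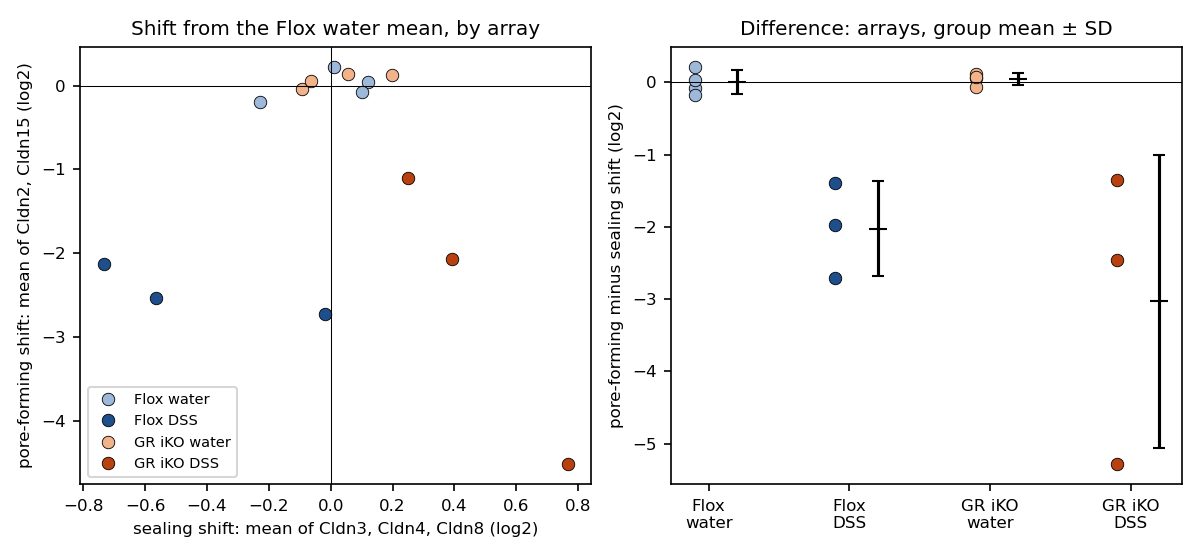
Left, pore-forming shift (mean of Cldn2 and Cldn15, log2) against sealing shift (mean of Cldn3, Cldn4 and Cldn8, log2) for each of the 14 arrays, both from the Flox water mean. Right, their difference by array (points) with the group mean ± SD. Water arrays lie near 0, and all 6 DSS arrays lie between -5.28 and -1.35. The sealing shift is below 0 on the Flox DSS arrays and above 0 on the GR iKO DSS arrays. The latter holds only with Cldn4 counted and not with spike-in scaling.

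The 2 claudins outside these classes fell in Flox and did not pass in GR iKO, as for Cldn3. Cldn7, a basolateral and junctional claudin abundant in colonocytes, was 6.97, 6.65, 7.04 and 6.71 on water and 6.596, 6.02 and 6.55 on DSS in Flox. The groups did not overlap by a narrow margin, and the fall of 0.46 (SE 0.18) was at the edge of the threshold (adjusted p = 0.049), and in 12 of 28 alternatives it was not called (adjusted p up to 0.33). In GR iKO the range was 6.81 to 7.04 on water and 6.99 to 7.16 on DSS, with a change of 0.18 (SE 0.18, adjusted p = 0.44). Cldn23, a claudin of the upper colonic epithelium, was 2.20, 1.86, 2.10 and 1.44 on water and 1.17, 0.73 and 0.94 on DSS in Flox, a fall of 0.95 (SE 0.27, adjusted p = 0.013). Without Flox DSS replicate 2 that fall was not called (adjusted p = 0.087). In GR iKO it was 1.88 to 2.24 on water and 1.56 to 2.41 on DSS, with overlapping groups (change -0.20, SE 0.27, adjusted p = 0.60).

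Ocln was lower on DSS in both genotypes. Its level on water was 0.54, 0.39, 0.68 and 0.66 in Flox and 0.45, 0.74, 0.90 and 0.76 in GR iKO. On DSS it was -1.63, -1.21 and -0.68 in Flox and -0.12, 0.31 and -0.66 in GR iKO. The groups were separate in both genotypes, with falls of 1.74 for Flox (SE 0.24, adjusted p = 0.00012) and 0.87 for GR iKO (SE 0.24, adjusted p = 0.012). The second Ocln probe, which was dimmer, gave the same direction. None of the Flox DSS arrays had it well above background. With the scaling reported, Ocln was at least 2.30-fold lower there by this probe (measured means -4.19 on water and -6.45 on DSS, adjusted p = 0.00053). In GR iKO this probe fell by 1.28 (adjusted p = 0.020). The GR iKO call of the first probe was lost without DSS replicate 4 (adjusted p = 0.10).

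Tjp1 did not pass in either genotype with the brighter of its 2 probes. Its level was -0.24, -0.50, -0.27 and -0.18 on water and -0.08, -0.34 and -0.20 on DSS in Flox, and -0.11, -0.04, 0.07 and -0.25 on water and 0.20, 0.83 and -0.02 on DSS in GR iKO. The groups overlapped in both genotypes, with changes of 0.09 (SE 0.18, 95% interval -0.31 to 0.49) and 0.42 (SE 0.18, 95% interval 0.02 to 0.82, adjusted p = 0.092). The second probe disagreed in Flox, where it rose by 1.06 (SE 0.41, adjusted p = 0.049), and it did not pass in GR iKO (0.67, SE 0.41, adjusted p = 0.22). Spike-in scaling put the brighter probe at -2.04 in Flox (adjusted p = 7.0e-05), against the median probe at -2.22.

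Slides each held 3 or 4 arrays of several groups, so the changes were also read within slides. Cldn2, Cldn15 and Ocln were lower on DSS on 3 of 3 slides in both genotypes, and Cldn3, Cldn7 and Cldn23 on 3 of 3 slides in Flox. Cldn2 within slides was -3.94 to -3.47 in Flox and -6.21 to -1.31 in GR iKO. Cldn4 was higher on 3 of 3 slides in both genotypes, by 1.52 to 2.70 in GR iKO and by 0.0046 to 1.29 in Flox. Cldn8 ranged from -2.71 to 0.28 in Flox, lower on 2 of 3 slides, and was lower on 3 of 3 slides in GR iKO, by -1.07 to -0.31. With the slide as a block, 7 members were called in Flox and 4 in GR iKO, beside 14398 and 11790 of all 29523 probes.

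**Figure D3:**
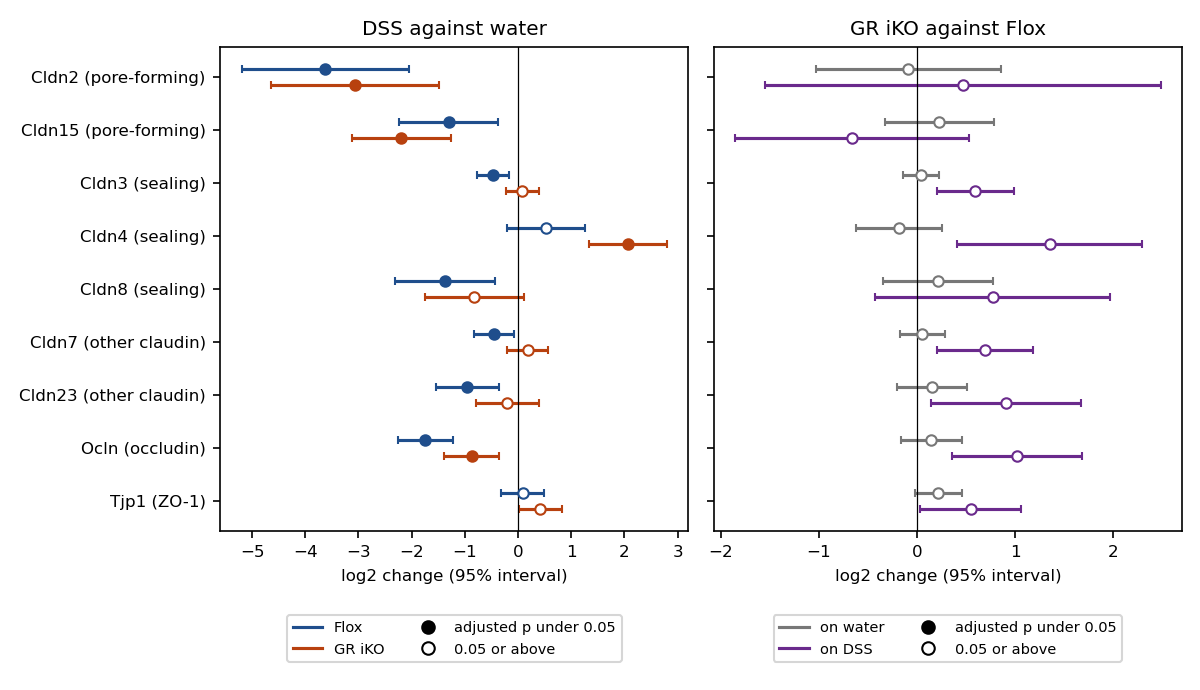
Log2 change (point) with its 95% interval for each of the 9 measured members, for the DSS response of each genotype (left) and for the genotype difference on each treatment (right). Filled points have an adjusted p under 0.05: 7 in Flox and 4 in GR iKO on the left, and none on the right.

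On water, epithelial GR loss came with no called change in any member. The changes ran from -0.18 for Cldn4 to 0.23 for Cldn15, and 0 of 9 members had an unadjusted p under 0.05 in limma, against 3.34% of all probes. The share of probes called was 0.0237%. The narrowest 95% interval was that of Cldn3 (-0.14 to 0.22) and the widest that of Cldn2 (-1.03 to 0.86).

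On DSS, none of the 9 members passed the test between genotypes (0.0203% of all probes were called), but 6 had an unadjusted p under 0.05 in limma, against 17.6% of all probes. In these 6, Cldn3, Cldn4, Cldn7, Cldn23, Ocln and Tjp1, all 3 GR iKO arrays were above all 3 Flox arrays, as held for 11.2% of all probes. Cldn4 was higher in GR iKO by 1.35 (SE 0.43, 95% interval 0.41 to 2.30, adjusted p = 0.15). Ocln was higher by 1.02 (SE 0.31, 95% interval 0.36 to 1.68, adjusted p = 0.13), Cldn23 by 0.91 (SE 0.35, adjusted p = 0.21), Cldn7 by 0.69 (SE 0.22, adjusted p = 0.15), Cldn3 by 0.60 (SE 0.18, adjusted p = 0.13) and Tjp1 by 0.55 (SE 0.24, adjusted p = 0.25) with its brighter probe. The second Tjp1 probe went the other way, with overlapping groups (-0.16, adjusted p = 0.92), and without GR iKO DSS replicate 3 the brighter probe gave 0.30 (adjusted p = 0.43). The second, dimmer Ocln probe was higher by 0.91, but its groups overlapped (adjusted p = 0.37). Cldn8 (0.78, SE 0.55, 95% interval -0.42 to 1.97), Cldn15 (-0.66, SE 0.55, 95% interval -1.86 to 0.53) and Cldn2 (0.47, SE 0.93, 95% interval -1.55 to 2.49) had overlapping groups. Where water and DSS arrays were given 1 shared spread, the first 5 of those 6 were called (adjusted p from 0.0195 to 0.033), beside 3903 of all 29523 probes. With a weight for each array Cldn3 (adjusted p = 0.014) and Ocln (adjusted p = 0.030) were called, beside 3495 of all probes. Within the 2 slides that held both genotypes on DSS, Cldn4 was higher in GR iKO by 1.35 and 1.31. Cldn3, Cldn7, Cldn23, Ocln and Tjp1 (brighter probe) were also higher on both, but Ocln by 1.94 on one slide and 0.021 on the other. Cldn2 (-2.40 and 1.93), Cldn15 (-1.56 and 1.33) and Cldn8 changed sign between these slides. The cell type markers differed on the same arrays. Smooth muscle markers had a median change of -1.34 between genotypes on DSS, with an unadjusted p under 0.05 in limma for 6 of 6, and epithelial markers one of 0.52, with 5 of 11. Neutrophil markers had a median of 2.05, with 4 of 7, and skeletal muscle markers one of -0.90, with 2 of 3. None of these 4 lists held a called gene. Their part in the claudin differences was not tested.

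For Cldn2, a genotype difference on DSS was called only when a single array was left out. Without GR iKO DSS replicate 3 its level was higher in GR iKO by 2.03 (adjusted p = 0.023), and the genotype by DSS interaction was 2.12 (adjusted p = 0.042). In that setting 2.43% of all probes were called between genotypes on DSS and 0.163% for the interaction. With replicate 3 included, the Cldn2 interaction was 0.56 (SE 1.03, adjusted p = 0.85). For the other members the interaction, the DSS change in GR iKO minus that in Flox, ran from -0.89 for Cldn15 to 1.54 for Cldn4 (SE 0.48, adjusted p = 0.19). None was called, as for all probes (0%), and 4 of 9 had an unadjusted p under 0.05 in limma (Cldn3, Cldn4, Cldn7 and Ocln), against 14.8% of all probes. A call in 1 genotype only, as for Cldn3, Cldn4, Cldn7, Cldn8 and Cldn23, is therefore not shown to be a difference between genotypes.

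Other cells of the colon moved with these results. In bulk tissue, fewer cells of a type and less RNA per cell cannot be told apart. Relative to the Flox water mean, the 11 epithelial markers shifted by -0.64 to -0.05 on the Flox DSS arrays and by -0.18 to 0.43 on the GR iKO DSS arrays. Their log2 summed level was 10.23 to 10.49 in Flox water, 10.02 to 10.72 in Flox DSS, 10.26 to 10.49 in GR iKO water and 10.28 to 10.87 in GR iKO DSS. In Flox, 4 of 11 fell and 2 rose, and in GR iKO, 1 fell and 2 rose; Cdx1, a transcription factor of intestinal epithelium, fell by 2.60 (adjusted p = 1.5e-05) and 1.59 (adjusted p = 0.00060), while Krt20 and Elf3, made by mature surface epithelium, rose in both. The 6 goblet cell markers shifted by -2.14 to 0.49 in Flox DSS, where 2 fell, Spdef and Fcgbp, and by -1.25 to 0.50 in GR iKO DSS, where none was called. Flox DSS replicate 4 and GR iKO DSS replicate 3 were the arrays above 0. Over all probes, 25.4% were called lower and 21.8% higher on DSS in Flox, and 19.7% and 19.0% in GR iKO.

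Neutrophil markers rose in 5 of 7 in Flox and 7 of 7 in GR iKO, with a measured mean shift of 3.85 to 4.81 in Flox DSS and 5.85 to 7.42 in GR iKO DSS. These sizes are not exact, since 4 of the 7 (Cxcr2, Ltf, Ngp and S100a8) were well above background on 3 or fewer of the 8 water arrays and passed the filter mainly through the DSS arrays. S100a9, a granulocyte calcium-binding protein that was well above background on all 14 arrays, rose by 8.08 (adjusted p = 3.2e-05) and 9.65 (adjusted p = 1.8e-05). Beside these counts, 21.8% of all probes were called higher on DSS in Flox and 19.0% in GR iKO. Macrophage markers rose in 3 of 6 and 5 of 6, and fibroblast markers in 6 of 6 in both genotypes. Smooth muscle markers rose in 5 of 6 in Flox, shifting by 0.93 to 1.72, and in none of 6 in GR iKO, where they shifted by -0.73 to 0.53. Endothelial markers rose in 3 of 6 and 2 of 6. With spike-in scaling the median change in Flox was -0.77 for fibroblast, -0.83 for smooth muscle, -1.05 for macrophage and -1.45 for endothelial markers and 1.89 for neutrophil markers, and in GR iKO only the endothelial median turned among the lists that had risen (-0.45). Skeletal muscle markers rose in 2 of 3 in Flox and none in GR iKO, and no red blood cell marker of 2 was called. The part that these shifts have in the claudin changes was not tested.

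**Figure D4:**
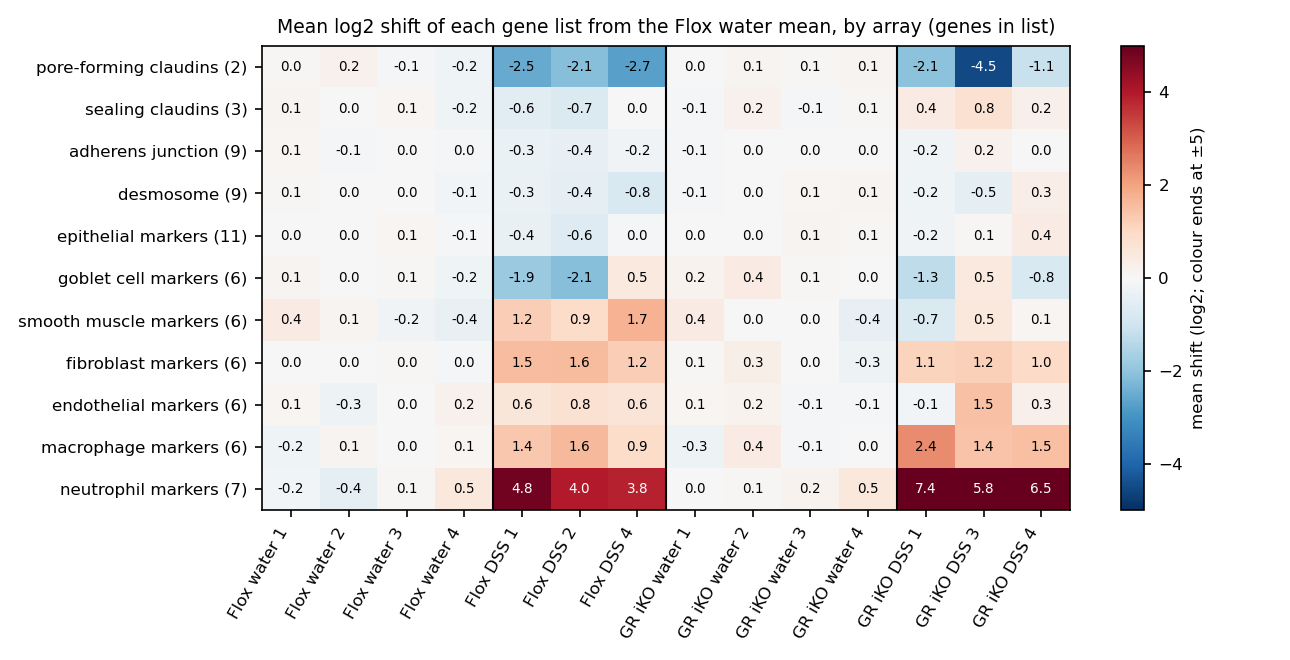
Mean log2 shift of each gene list from the Flox water mean, by array (columns, grouped by genotype and treatment). The number of measured genes is in brackets, and colour ends at ±5. The pore-forming row is lower on all 6 DSS arrays, the epithelial row stays between -0.64 and 0.43, and the neutrophil row is 3.85 or higher on all DSS arrays.

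Adherens junction and desmosome genes give the neighbouring junctions. Of all probes tested, 47.2% were called on DSS in Flox and 38.8% in GR iKO, larger shares than in either of these lists. Of 9 adherens junction genes, 2 fell in Flox (median -0.26), Nectin3, a cell adhesion receptor, by 1.16 (adjusted p = 8.4e-05) and Ctnnd1 (p120 catenin) by 0.86 (adjusted p = 0.00043). In GR iKO, 1 fell, Nectin3 by 0.96 (adjusted p = 0.0012), and 1 rose (median 0.03). Of 9 desmosome genes, 1 fell in Flox, Pkp1 (plakophilin 1), by 2.72 (adjusted p = 0.00051), with a median of -0.31. In GR iKO, Pkp1 fell by 2.59 (adjusted p = 0.0010), Evpl (envoplakin) fell by 0.82 (adjusted p = 0.033) and 1 gene rose, with a median of 0.34.

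Beyond the 10 members, 51 further tight junction genes were listed, of which 48 had a probe and 43 were tested. In Flox 13 rose and 16 fell on DSS, with a median of 0.08, beside 47.2% of all probes called, and in GR iKO 18 rose and 12 fell, with a median of 0.09, beside 38.8%. In all, 25 of the 43 were called in both genotypes, but the share of all probes called in both was not counted, so this overlap has no background beside it. The split rested on the scaling, since with spike-in scaling 1 rose and 33 fell in Flox and 1 rose and 17 fell in GR iKO.

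Among 8 further claudins measured, Cldn10 and Cldn11 rose and Cldn12 and Cldn14 fell in both genotypes. Cldn10, whose splice forms build cation or anion pores, was -3.30, -3.85, -3.15 and -3.32 on water and -0.39, -0.27 and 0.54 on DSS in Flox, a rise of 3.37 (adjusted p = 1.5e-05). For GR iKO it was -3.17, -2.85, -3.61 and -3.42 on water and -1.31, -1.92 and -2.44 on DSS, a rise of 1.37 (adjusted p = 0.0070). The Flox DSS arrays were above all others, and between genotypes on DSS the change was -1.85 (adjusted p = 0.090). Cldn11, the claudin of myelin and of Sertoli cells, was not well above background on any Flox water array. With the scaling reported it was at least 2.65-fold higher on DSS there (measured means -6.597 and -4.596, adjusted p = 1.2e-05). Among the alternatives without spike-in scaling, its measured change in Flox was as low as 0.93. In GR iKO Cldn11 rose by 0.89 (adjusted p = 0.0034). Spike-in scaling put Cldn11 at -0.13 in Flox and 0.01 in GR iKO. Cldn12 fell by 1.07 (adjusted p = 0.00032) and 0.77 (adjusted p = 0.0036), and Cldn14, a cation barrier claudin, by 1.79 (adjusted p = 0.0035) and 1.16 (adjusted p = 0.040). The Cldn14 call in GR iKO was lost in 10 of 28 alternatives.

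Cldn22 was called lower in GR iKO, where 1 of 3 DSS arrays was well above background, with a measured change of -2.72 (adjusted p = 0.0012) that was -0.41 with normexp (adjusted p = 0.14), and it changed by -0.65 in Flox (adjusted p = 0.31). Cldn5, the endothelial claudin, changed by 0.58 (adjusted p = 0.061) and -0.20 (adjusted p = 0.53) and Cldn9 by 0.08 (adjusted p = 0.77) and 0.44 (adjusted p = 0.12). Cldn19 was well above background on 1 array of each group, so no change is given for it. On water, Cldn11 was the single tight junction gene called between genotypes. It was -6.69, -6.35, -6.65 and -6.70 in Flox and -5.97, -5.77, -5.61 and -5.48 in GR iKO, of which 2 of 4 arrays were well above background. The measured change was 0.89 (adjusted p = 0.020). Its size is not exact, since it ran from 0.10 to 0.98 over the alternatives. The call held in 10 of the 27 alternatives that measured it, with adjusted p values from 0.0054 to 1.0.

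The membrane proteins other than claudins rose in 5 of 13 and fell in 5 of 13 in Flox, and rose in 10 of 13 and fell in 3 of 13 in GR iKO. Of all probes, 21.8% were called higher and 25.4% lower on DSS in Flox, and 19.0% and 19.7% in GR iKO. Ildr2 rose by 2.99 (adjusted p = 0.00016) and 2.07 (adjusted p = 0.0026), Jam2, an adhesion molecule of endothelium, by 1.94 (adjusted p = 5.7e-06) and 1.39 (adjusted p = 6.8e-05), and Bves by 2.06 (adjusted p = 7.1e-05) and 0.90 (adjusted p = 0.017). The GR iKO call of Bves was lost without DSS replicate 3 (0.72, adjusted p = 0.080) or replicate 4 (adjusted p = 0.069) and with spike-in scaling (0.02, adjusted p = 0.97). Lsr (angulin-1), which organises the corners where 3 cells meet, fell by 1.98 (adjusted p = 4.5e-05) and 0.88 (adjusted p = 0.011), and Marveld3, an occludin relative, by 1.73 (adjusted p = 2.2e-05) and 0.92 (adjusted p = 0.0021). Marveld3 and Lsr thus fell in both genotypes, as Ocln did, while Jam2 rose in both, except that spike-in scaling put Jam2 at -0.19 and Bves at -0.074 in Flox. Of 22 scaffold and polarity genes, 6 rose and 9 fell in Flox, and 6 rose and 6 fell in GR iKO. Magi2 rose by 1.79 (adjusted p = 8.6e-05) and 2.06 (adjusted p = 5.5e-05), and Mpdz (MUPP1), which binds claudins, by 1.94 (adjusted p = 2.8e-05) and 1.496 (adjusted p = 0.00026), while spike-in scaling put them at -0.34 and -0.19 in Flox. No other tight junction gene was called between genotypes on DSS or for the interaction, where 18 and 15 of the 43 had an unadjusted p under 0.05 in limma, against 17.6% and 14.8% of all probes.

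**Figure D5:**
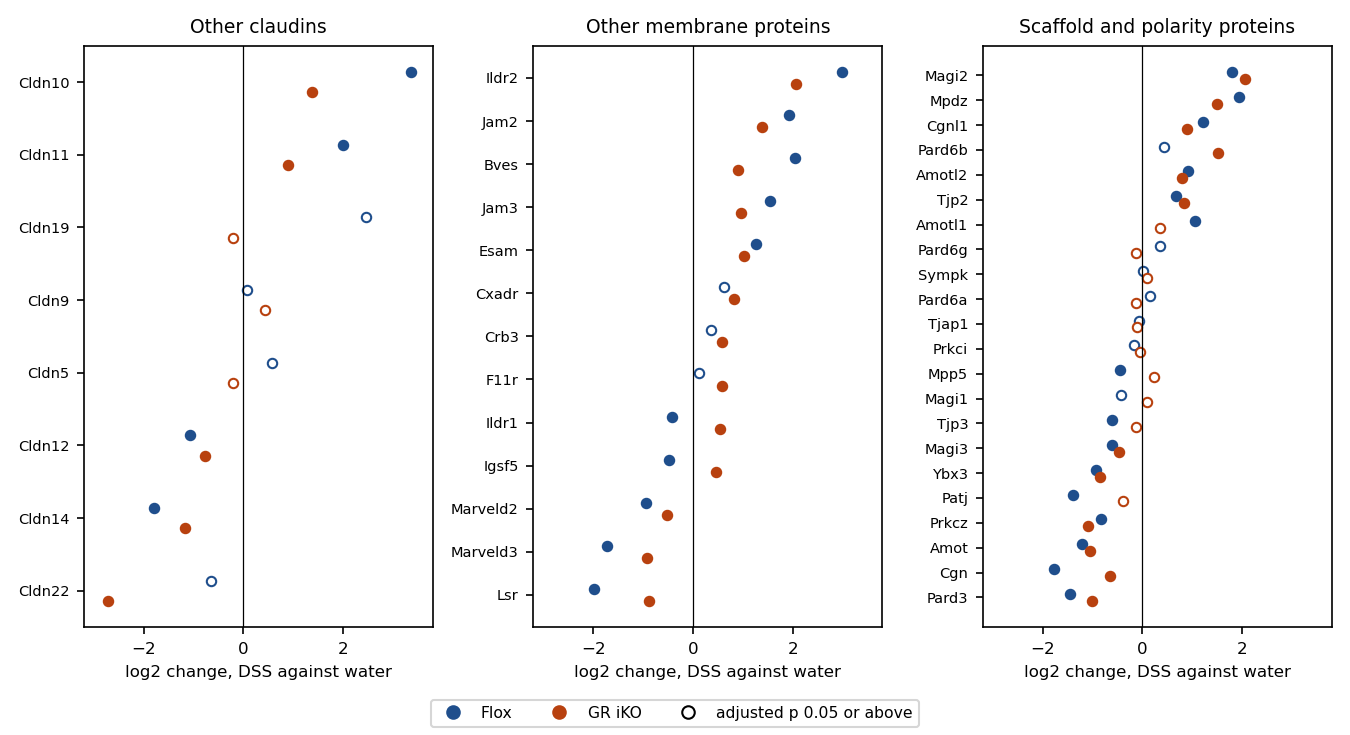
Log2 change on DSS against water in Flox and GR iKO for the 43 further tight junction genes tested, in 3 panels (8 claudins, 13 other membrane proteins, 22 scaffold and polarity proteins), sorted by mean change. Filled points have an adjusted p under 0.05, and Cldn10 with a rise of 3.37 in Flox is the rightmost claudin.

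Likeness of pattern was read as Pearson's r over the 14 arrays against 13284 genes that were well above background on all of them. The arrays share their groups, so these are descriptions. Closest to Cldn2 were Pdha1, Cenpv and Rpa3 (all r = 0.98), and closest to Cldn15 were Gtf2h4, Timm21 and D6Wsu163e (all r = 0.97). Cldn4 was most like Bmp8b, Pard6b (both r = 0.96) and Marcksl1 (r = 0.95). Heph, Tjp3 (both r = 0.95) and Cd2ap (r = 0.94) were nearest to Cldn3, and Akap7, Clic6 and Selenos (all r = 0.95) to Cldn8. Cldn7 was nearest to Atp11b and Nlrc4 (both r = 0.92) and Cdh17 (r = 0.91), and Cldn23 to Epcam (r = 0.94), the epithelial adhesion molecule, Cd82 and Dcaf10 (both r = 0.93). The nearest genes were 5830428M24Rik, Ppcdc and Themis3 (r from 0.97 to 0.98) for Ocln and Ikzf1, Cd55 (both r = 0.87) and Prkx (r = 0.86) for Tjp1. Among the members, Ocln and Cldn8 (r = 0.85) were most alike, and Cldn4 ran opposite to Cldn15 (r = -0.76) and Cldn2 (r = -0.73).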

How the data were processed

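The authors hybridised 500 ng of Cy3-labelled total RNA per colon to Agilent 4x44K arrays and extracted spots with Agilent Feature Extraction 12.0.0.7 (Partek 6.6 is also named in the submitters' processing notes). The deposited intensity is the processed signal, background-subtracted on a linear scale and not scaled between arrays. A deposited log2 value table of the same arrays had the same median on every array (6.05) and correlated with the log2 processed signal at 0.9988 to 1.000, and served as an alternative; its normalization is not given in the sources used here. The study's own test for these arrays is not given in the sources used here.

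Here, 1639 control spots were left out, spots marked by the extraction software as non-uniform or population outliers were set to missing, spots of a probe were averaged, and log2 values were taken minus the array's 75th percentile. A probe was tested if well above background on at least 3 of 14 arrays (29523 of 41174 probes). The limma 3.58.1 fit in R 4.3.3 (lmFit, eBayes) used all 14 arrays, weighted DSS arrays less than water arrays by their larger variance, gave 5 two-sided comparisons and was adjusted by Benjamini-Hochberg over all tested probes. The tested probe of highest mean signal stood for a gene. Symbols were matched through RefSeq accessions to GRCm38.p6 for 28223 of 29245 probes with one; the array grid used another build, so probe coordinates are not given. The series' design text speaks of pairs of Flox and GR iKO mice but does not say what a pair shares, and no label ties a replicate number to a litter or day, so the numbers were not used as pairs; p values measure the spread between these samples. The number of arrays limits the precision.

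The named genes were all 10 members, other tight junction claudins that were tested, any called between genotypes, and up to 10 called on DSS in both genotypes by mean change; for junction and marker lists up to 3 genes by mean change; and for likeness the 3 genes of highest r. The members and lists were chosen with earlier results of these data known. Alternatives covered scaling (quantile, spike-in controls, normexp with offset 50 on the median signal), filters, weights, blocks, probe choice and leaving out each array. On data simulated for 29523 probes, the fit recovered 84 of 100 changes of 2 log2 units in Flox on DSS and 87 of 100 in GR iKO, and 46 of 100 of 1 log2 unit in each. Far fewer probes changed there than were called on DSS in the data, which alters the adjusted threshold. These shares therefore need not hold for the data, and no genotype difference was simulated.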

Additional observations from a re-analysis of the deposited data

How the results depend on the processing

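Over the 45 member changes (9 members in 5 comparisons), 1192 of the alternative values kept their direction and their side of the threshold, 23 lost the call, 14 gained one, 20 changed sign without a call on either side and 2 turned with a call. The members called in Flox on DSS numbered 3 to 7 when each array was left out in turn and 5 to 9 under the other alternatives. In GR iKO on DSS they numbered 3 to 5 and 4. Between genotypes on DSS, none was called in the setting reported, 5 with 1 shared spread, 2 with a weight for each array and 0 to 1 when each array was left out. For the interaction, 1 was called with a weight for each array and 0 to 1 when each array was left out. The other tight junction genes called in GR iKO on DSS numbered 18 with spike-in scaling. Between genotypes on DSS they were 13 with 1 shared spread, 18 with a weight for each array, 2 with eBayes with trend and robust, and 0 to 4 when each array was left out, and for the interaction 12 with a weight for each array. On water the single call, Cldn11, was 0 with quantile, spike-in or normexp scaling, the deposited table, no filter, a filter on all arrays (which leaves Cldn11 out), 1 shared spread, only the arrays compared, trend and robust, the slide as a block and the replicate block, and 0 to 1 when each array was left out.

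With spike-in scaling, which moved the median of all probes by -2.22 in Flox on DSS, changes in Flox turned for Cldn4 (-1.60), Tjp1 (-2.04), Cldn5 (-1.55), Cldn9 (-2.05), Bves (-0.074), Cldn11 (-0.13), Jam2 (-0.19), Magi2 (-0.34) and Mpdz (-0.19). These lie above that median, and no member turned in GR iKO with a call. The pore-forming minus sealing shift ran from -2.34 to -1.68 in Flox DSS, from -3.87 to -1.90 in GR iKO DSS and from -0.01 to 0.12 in GR iKO water over the arrays left out, and counting Cldn7 as sealing, quantile scaling, normexp or the deposited table moved it by less than 1 SD; spike-in scaling moves all genes of an array alike and cannot change it. Leaving Cldn4 out of the sealing class, chosen after seeing the data, gave -1.54, -2.32 and -0.059.

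Over all probes, the count in Flox on DSS was 24331 with spike-in scaling and 9149 without Flox DSS replicate 1. Between genotypes on DSS it was 3903 with 1 shared spread, 3495 with a weight for each array, 810 without Flox DSS replicate 4, 716 without GR iKO DSS replicate 3, 159 with trend and robust, 20 in the deposited table and 0 with spike-in scaling, no filter, only the arrays compared or either block, against 6; on water it fell from 7 to 1 with 1 shared spread, 3 with spike-in scaling or only the arrays compared and 4 with normexp, the filter on all arrays or probe means; for the interaction it was 2065 with a weight for each array, 48 without GR iKO DSS replicate 3 and 33 with 1 shared spread, against 0. Deviations of arrays with the same replicate number correlated between -0.23 and 0.31 over 18 pairs. With 3 or 4 arrays in a group, this range cannot show whether the numbers mark pairs. The numbers were not taken as pairs because no label says what they share. With the replicate block, the DSS comparisons called 7 members (Flox) and 4 members (GR iKO), beside 14280 and 11779 of all 29523 probes. No member was called there between genotypes or for the interaction. Dim probes (Cldn1, Cldn11, Cldn19, Cldn22 and the second Ocln probe) are limited by their signal over background.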
